A study of Homo sapiens with 12 samples.

Results

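The Notch pathway is described here through 10 of the 60675 genes in the deposited count tables. They are 3 receptors (NOTCH1, NOTCH2 and NOTCH3), 3 ligands (JAG1, JAG2 and DLL1) and 4 genes that Notch signalling is known to switch on (HES1, HES4, HEY1 and NRARP). The members were picked by symbol, and each symbol matched 1 gene identifier. The rule itself uses no measured value. Earlier results of these data were known when the members were chosen, so the choice may not be independent of them. All 10 passed the filter on low counts in HCC1187, and 9 of them passed it in MDA-MB-468, where DLL1 had 0 or 1 count in each library.

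Notch receptors sit in the cell surface and bind ligands of the Jagged and Delta-like families on neighbouring cells. Binding lets an ADAM protease and then gamma-secretase cut the receptor, and the freed intracellular part enters the nucleus. There it joins the DNA-binding protein RBPJ and the Mastermind-like coactivators, and genes of the HES and HEY families of transcriptional repressors are switched on. NRARP is another such target, and its product acts back on the pathway as an inhibitor. In the breast, Notch receptors take part in the choice between luminal and basal cell fates, and rearranged NOTCH1 and NOTCH2 genes are known from some triple-negative tumours and lines.

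The study knocked down SOX9-AS1, a long non-coding RNA transcribed across the SOX9 locus, in HCC1187 and MDA-MB-468, 2 human triple-negative breast cancer lines. Cells were transfected for 48 h with sh-SOX9-AS1 or with sh-LacZ, a control hairpin against a bacterial gene, and polyadenylated RNA was sequenced with paired 76 bp reads. HCC1187 was grown in RPMI-1640 and MDA-MB-468 in DMEM, so medium and line cannot be told apart. Each line and hairpin has 3 libraries, namely S10 to S12 (HCC1187 sh-SOX9-AS1), S7 to S9 (HCC1187 sh-LacZ), S4 to S6 (MDA-MB-468 sh-SOX9-AS1) and S1 to S3 (MDA-MB-468 sh-LacZ). No source used here gives the sequence or number of the hairpins, and the count columns of the knockdown libraries carry the word BLANCO, which no source explains. Separate cultures are not stated for the libraries within a group, so p-values measure only the spread among these libraries. In bulk RNA, fewer cells that express a gene and less of its RNA per cell cannot be told apart.

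Lane 1 of each library held 6026376 to 10160040 counts. Levels are given in CPM, the usual scaling of counts to a common library size, here with TMM-scaled library totals, and changes are log2 fold changes ± standard error from edgeR's quasi-likelihood test. A gene passed at a Benjamini-Hochberg adjusted p under 0.05 over all genes tested. S4 stood apart from the other libraries of its group. Across 16328 genes its log2 CPM correlated with S5 and S6 at r = 0.974 to 0.977, and with the sh-LacZ controls S1 to S3 at 0.991 to 0.995. S4 is also the 1 library of 12 missing from the authors' sample tables, so MDA-MB-468 results are given with and without it. The likeness of S4 to the controls was judged on these same counts. Leaving S4 out can therefore widen the difference between the groups and narrow the spread within them. Adjusted p-values and counts of calls without S4 are descriptive and may overstate the change. SOX9-AS1 itself stood at 1.16, 0.697 and 0.796 CPM in S10 to S12, against 2.32, 1.40 and 1.74 CPM in S7 to S9 (−1.08 ± 0.36, adjusted p = 0.0349), on 5 to 24 counts per library; the call was lost without S7, S9, S11 or S12, with the highest adjusted p at 0.168, and DESeq2 gave it no adjusted p. It stood at 5.54, 5.03 and 5.57 CPM in S4 to S6, against 6.04, 7.28 and 6.54 CPM in S1 to S3, and did not pass with S4 (adjusted p = 0.417) or without it (adjusted p = 0.274). The labels call the cells basal-like. Of 9 basal markers, KRT5, KRT14, KRT6A, TP63 and TRIM29 had at most 4 counts in every HCC1187 library. The 9 summed to 206 to 278 CPM there and to 6727 to 9114 CPM in MDA-MB-468. In MDA-MB-468 controls EGFR alone held 5999 to 6454 CPM of a sum of 8915 to 9026 CPM. Between the controls 8 of the 9 were lower in HCC1187, beside 40.4% lower among all genes. FOXC1 went the other way, at 173 to 191 CPM in HCC1187 controls against 72.8 to 95.2 CPM in MDA-MB-468 controls. Of 9 stromal and blood cell markers, CD3E, CD68, COL1A2 and PTPRC had at most 4 counts in every library of both lines. COL1A1 was present at 44.6 to 56.6 CPM in HCC1187 and 11.9 to 20.5 CPM in MDA-MB-468, COL3A1 at 10.2 to 17.6 CPM in HCC1187, and PECAM1 at up to 40 counts in MDA-MB-468.

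In the GENCODE v29 annotation of GRCh38 the receptors NOTCH1 (chromosome 9, 136494433 to 136545786), NOTCH2 (chromosome 1, 119911553 to 120069626) and NOTCH3 (chromosome 19, 15159038 to 15200981) all lie on the minus strand. The minus strand also holds JAG1 (chromosome 20, 10637684 to 10673999), JAG2 (chromosome 14, 105140981 to 105168824) and DLL1 (chromosome 6, 170282206 to 170306565). Of the target genes, HES1 lies on the plus strand of chromosome 3 (194136145 to 194138732). HES4 (chromosome 1, 998962 to 1000172) and NRARP (chromosome 9, 137300482 to 137302251) lie on the minus strand. NOTCH1, JAG1 and DLL1 each overlap a gene on the other strand. Whether reads were counted by strand is not stated, so their counts could include or lose reads of that partner. JAG2 and DLL1 also overlap a non-coding gene on their own strand (AL512356.1 and AL078605.1). NOTCH1, NOTCH3, JAG1 and JAG2 each overlap a microRNA gene on their own strand. How reads in such shared stretches were counted is not stated. NOTCH2 shares sequence with the NOTCH2NL genes, whose summed counts were 15 to 30 per library beside 1148 to 2601 for NOTCH2.

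RBPJ is known to bind a short DNA word with the core TGGGAA, and the promoters of HES genes are the textbook case. The stretches below were read from RefSeq promoters (GRCh38.p14, 250 bases before to 50 after the gene start), and are shown because HES1 and HES4 are the members that hold the core. HES5 is a classic HES target that had at most 2 counts in each MDA-MB-468 library. Each is 30 bases long, is written 5′ to 3′ on the strand of its gene, and has the core in capitals. They lie at chr3:194136059-194136088 on the plus strand for HES1, at chr1:1000149-1000178 on the minus strand for HES4 and at chr1:2530319-2530348 on the minus strand for HES5.
HES1: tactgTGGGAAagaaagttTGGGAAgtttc
HES4: gagtgTGGGAAagaatgcggagccgggttc
HES5: gagtgTGGGAAcggccgcggcgcccggact
The core begins 84 and 70 bases before the start of HES1, 76 bases before that of HES4 and 80 bases before that of HES5, each time on the strand of the gene. A second core in HES5 begins 224 bases before its start, on the other strand. Searched on both strands as TGGGAA, the core was found in 2 of the 8 members with a promoter read (HES1 and HES4; those of HEY1 and DLL1 were not analysed here) and in 24.0% of all 35116 promoters. HES1 and HES5 had 2 copies each, as did HEYL and HEY2, which were searched too and are not members. Of all promoters 3.80% had at least 2. No match was found for NOTCH1, NOTCH2, NOTCH3, JAG1, JAG2 or NRARP, which says only that these letters are not in those windows.

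In HCC1187, 4 of the 10 Notch genes fell with sh-SOX9-AS1, none rose and 6 did not pass. The 4 were the receptors NOTCH1 and NOTCH2, the ligand JAG1 and the target HEY1. Among all 14970 genes tested in this line 22.8% passed, 9.78% higher and 13.1% lower. The median change of the 10 genes was −0.29, against 0.01 for all genes tested. When libraries were scaled by their totals alone, 57.7% of the genes that passed were higher, against 42.8% with TMM. The same 4 members passed with DESeq2.

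NOTCH2, a receptor whose gene is reported as fused to SEC22B in HCC1187, stood at 167, 176 and 169 CPM in sh-SOX9-AS1 libraries, against 252, 244 and 244 CPM in sh-LacZ libraries of this line. The 2 groups lay well apart. NOTCH2 fell 1.46-fold (−0.54 ± 0.08, adjusted p = 4.04e-05) and passed under each of 11 alternatives. Gene counts cannot tell a fusion transcript from one of the intact gene. NOTCH1 stood at 20.1, 20.2 and 16.3 CPM with sh-SOX9-AS1, against 25.5, 24.1 and 29.7 CPM with sh-LacZ. Its groups did not overlap, and it fell 1.42-fold (−0.51 ± 0.13, adjusted p = 0.00589), but the call was lost without S12 and in a fit of all 12 libraries together (highest adjusted p = 0.283). NOTCH3 was the receptor that did not pass, with 153, 120 and 123 CPM, against 132, 127 and 146 CPM in sh-LacZ libraries. Those ranges overlapped (−0.04 ± 0.10, adjusted p = 0.783), and an interval of 2 standard errors ran from −0.24 to 0.15.

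Among the ligands in HCC1187, JAG1 had the largest change of the 10 genes in size. JAG1 had 30.1, 40.0 and 39.8 CPM with sh-SOX9-AS1, against 55.1, 59.5 and 65.8 CPM with sh-LacZ. Each knockdown library lay below each control library, and JAG1 fell 1.64-fold (−0.72 ± 0.11, adjusted p = 6.93e-05) and passed under each of 11 alternatives. Its close relative JAG2 had 68.1, 52.0 and 52.5 CPM, against 51.8, 50.1 and 62.7 CPM in sh-LacZ libraries. The JAG2 groups overlapped (0.05 ± 0.11, adjusted p = 0.775; 2 standard errors reached from −0.17 to 0.28). DLL1, a Delta-like ligand, had 12.5, 8.92 and 9.46 CPM, against 12.9, 13.8 and 13.5 CPM in sh-LacZ libraries. S10 stood near the controls while S11 and S12 stood lower. DLL1 did not pass with all 6 libraries (−0.40 ± 0.15, adjusted p = 0.0596), and passed without S10 (−0.55, adjusted p = 0.0120).

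HEY1 was the target gene that fell in HCC1187. HEY1 had 41.9, 48.5 and 53.7 CPM with sh-SOX9-AS1, against 72.9, 69.0 and 66.9 CPM with sh-LacZ, and the groups were far from overlapping. It fell 1.45-fold (−0.54 ± 0.10, adjusted p = 0.000462) and passed under each of 11 alternatives. HES1 had 38.4, 42.2 and 40.6 CPM, against 42.8, 42.7 and 48.1 CPM in sh-LacZ libraries. All 3 knockdown libraries lay just below the controls, yet the change did not pass (−0.15 ± 0.10, adjusted p = 0.301; 2 standard errors reached from −0.35 to 0.05). NRARP had 20.5, 22.6 and 19.7 CPM, against 22.5, 23.3 and 24.6 CPM in sh-LacZ libraries, with a slight overlap and no call (−0.18 ± 0.12, adjusted p = 0.292). HES4 varied most between libraries of a group, with 99.3, 67.3 and 56.1 CPM in sh-SOX9-AS1 libraries and 75.6, 58.0 and 109 CPM in sh-LacZ libraries. HES4 did not pass (−0.14 ± 0.17, adjusted p = 0.589), and passed without S10 (−0.41, adjusted p = 0.0378). Over 11 alternatives its change ran from −0.41 to 0.12, so its direction depended on the setting.

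**Figure D1:**
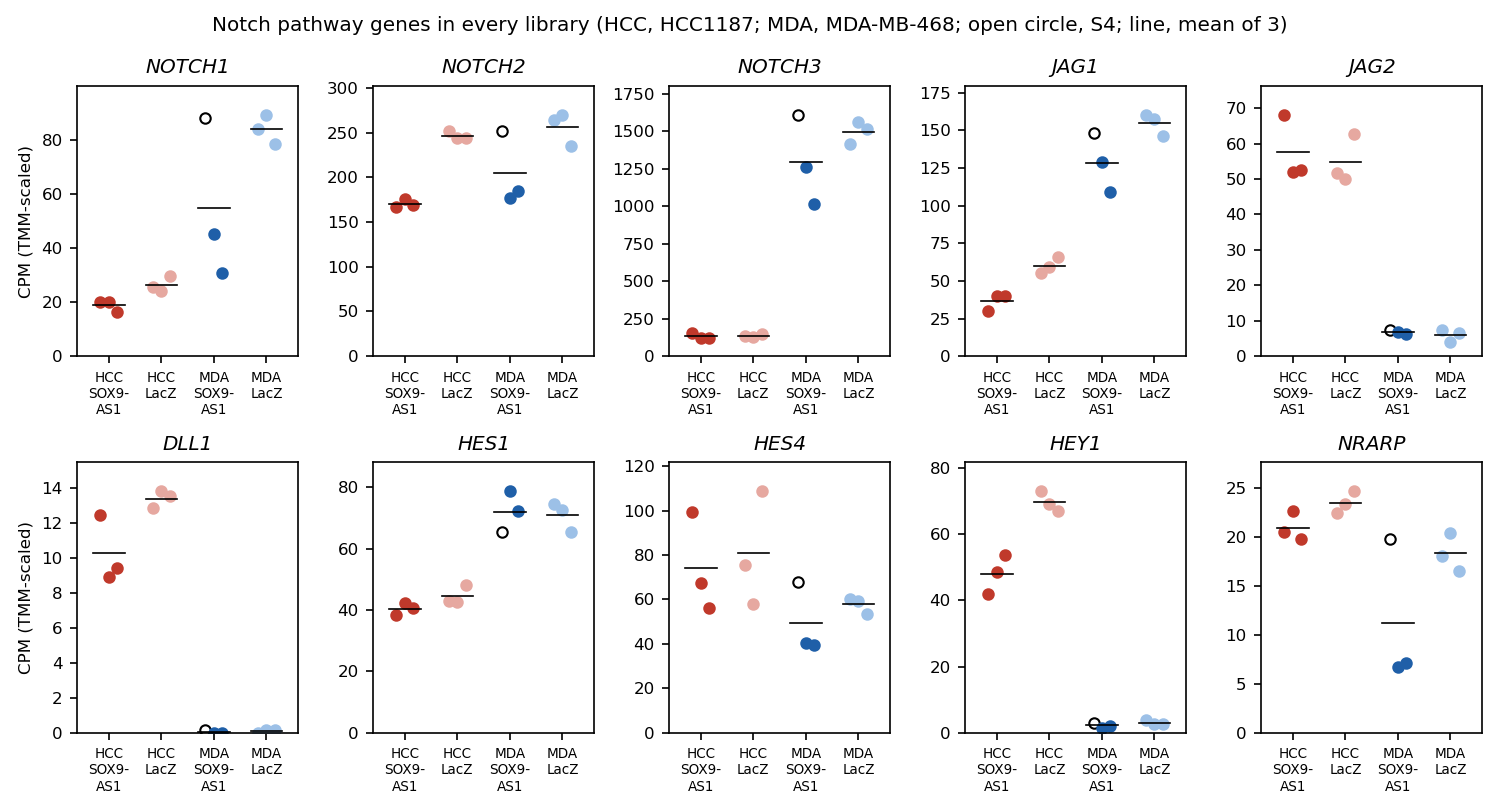
Level of each Notch gene (CPM after TMM scaling, linear axis from 0) in each of 12 libraries; from left to right in each panel HCC1187 sh-SOX9-AS1, HCC1187 sh-LacZ, MDA-MB-468 sh-SOX9-AS1 and MDA-MB-468 sh-LacZ, with 1 point per library, a line at the mean of 3 and an open circle for S4. NOTCH2, JAG1 and HEY1 are lower in all 3 HCC1187 knockdown libraries, and in MDA-MB-468 S5 and S6 lie below S4 and the controls for NOTCH1, NOTCH2, NOTCH3, HES4 and NRARP.

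In MDA-MB-468 with all 6 libraries, 0 of the 9 Notch genes tested passed in edgeR, 0 had an unadjusted p under 0.05, and 0 passed in DESeq2. Among all 13638 genes 0.00733% passed, 0% higher and 0.00733% lower, while 2554 had an unadjusted p under 0.05 and DESeq2 called 304. Without the low-count filter NOTCH1 and NRARP passed with all 6 libraries. Without S4, which leaves 2 knockdown libraries, 6 of the 9 fell, none rose and 3 did not pass, while 40.7% of all 13947 genes passed, 20% higher and 20.7% lower. The 6 were all 3 receptors, JAG1, HES4 and NRARP, and the median of the 9 genes was −0.51, against 0.00 for all genes. S4 lay within the range of the sh-LacZ controls for 6 of the 10 genes.

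NRARP, the feedback inhibitor, had 19.8 CPM in S4, 6.71 in S5 and 7.12 in S6, against 18.0, 20.3 and 16.5 CPM in the sh-LacZ libraries of MDA-MB-468. S5 and S6 were far below the rest, and S4 was among the controls. NRARP did not pass with all 6 libraries (−0.71 ± 0.38, adjusted p = 0.328), and without S4 it fell 2.65-fold (−1.41 ± 0.18, adjusted p = 2.36e-05). NOTCH1 had 88.1 CPM in S4, 45.1 in S5 and 31.0 in S6, against 84.1, 89.3 and 78.5 CPM in sh-LacZ libraries. The same split is seen, with no call on all 6 libraries (−0.62 ± 0.32, adjusted p = 0.318) and a fall of 2.21-fold without S4 (−1.14 ± 0.13, adjusted p = 1.05e-05).

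NOTCH2 had 252 CPM in S4, 177 in S5 and 185 in S6, against 264, 270 and 235 CPM with sh-LacZ in MDA-MB-468. It changed by −0.32 ± 0.15 with all 6 libraries (adjusted p = 0.281) and fell without S4 (−0.51 ± 0.09, adjusted p = 0.000303). NOTCH3, the most abundant of the 10 genes in this line, had 1609 CPM in S4, 1262 in S5 and 1013 in S6, against 1415, 1563 and 1513 CPM with sh-LacZ. S4 was above all 3 controls and S5 and S6 below them. NOTCH3 changed by −0.21 ± 0.16 with all 6 libraries (adjusted p = 0.470) and fell without S4 (−0.40 ± 0.09, adjusted p = 0.00297).

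JAG1 had 148 CPM in S4, 129 in S5 and 109 in S6, against 160, 158 and 146 CPM with sh-LacZ in MDA-MB-468. It changed by −0.27 ± 0.13 with all 6 libraries (adjusted p = 0.298) and fell without S4 (−0.38 ± 0.09, adjusted p = 0.00451). JAG2 was low, with 7.44, 6.85 and 6.19 CPM, against 7.50, 4.12 and 6.67 CPM with sh-LacZ. JAG2 passed neither with S4 (0.16 ± 0.26, adjusted p = 0.751) nor without it (adjusted p = 0.834), on 30 to 67 counts per library. With S4 an interval of 2 standard errors ran from −0.36 to 0.67. DLL1 had 1, 0 and 0 counts in S4 to S6 and 0, 1 and 1 counts in S1 to S3, too few for any comparison.

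HES4 had 68.0 CPM in S4, 40.4 in S5 and 39.5 in S6, against 60.4, 59.3 and 53.5 CPM with sh-LacZ in MDA-MB-468. It changed by −0.23 ± 0.21 with all 6 libraries (adjusted p = 0.547) and fell without S4 (−0.54 ± 0.11, adjusted p = 0.000997). HES1, whose promoter window holds the RBPJ core next to a second copy, had 65.4, 78.7 and 72.3 CPM, against 74.7, 72.7 and 65.5 CPM with sh-LacZ. Its groups overlapped, and it passed neither with S4 (0.02 ± 0.11, adjusted p = 0.919) nor without it (0.08 ± 0.10, adjusted p = 0.530; 2 standard errors reached from −0.11 to 0.28). HEY1 had 2.85, 1.54 and 2.17 CPM, against 3.69, 2.61 and 2.56 CPM with sh-LacZ, on 11 to 33 counts per library. HEY1 did not pass with S4 (−0.45 ± 0.33, adjusted p = 0.449) or without it (−0.70 ± 0.36, adjusted p = 0.132).

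**Figure D2:**
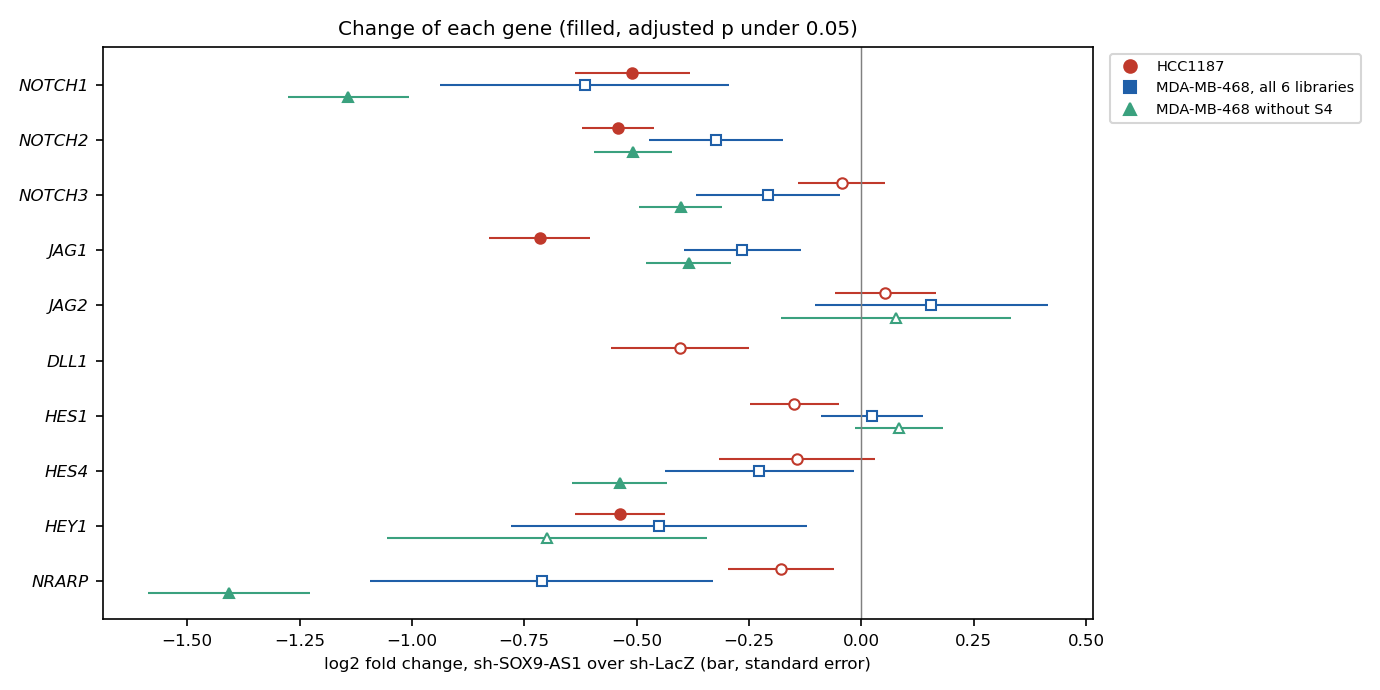
Log2 fold change of each Notch gene, sh-SOX9-AS1 over sh-LacZ, in HCC1187 (6 libraries, circles), in MDA-MB-468 (6 libraries, squares) and in MDA-MB-468 without S4 (5 libraries, triangles); bars are standard errors and filled symbols passed at an adjusted p under 0.05. No square is filled, while 4 circles and 6 triangles are, all of them left of 0.

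Whether the response differed between the lines was tested with the interaction of line and hairpin over all 12 libraries. In edgeR 0 of the 10 Notch genes passed, 1 (JAG1) had an unadjusted p under 0.05 and 0 passed in DESeq2. Of all 16328 genes 3.75% passed, 1.24% with the higher value in HCC1187 and 2.52% with the lower one. The JAG1 response was 0.44 lower on the log2 scale in HCC1187 (−0.44 ± 0.18, adjusted p = 0.183). Without S4, 2 of the 10 genes passed, while 25.6% of 16807 genes passed, 12.4% higher and 13.2% lower. NRARP was the clearer (1.23 ± 0.21, adjusted p = 8.62e-05), with a change of −0.18 in HCC1187 and −1.41 in MDA-MB-468. NOTCH1 was the other (0.63 ± 0.19, adjusted p = 0.0152), with changes of −0.51 in HCC1187 and −1.14 in MDA-MB-468. NOTCH3 did not pass (0.36 ± 0.14, adjusted p = 0.0621), although it had fallen in 1 line and not in the other.

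The controls of the 2 lines differed in most of the Notch genes. Among the sh-LacZ controls 9 of the 10 Notch genes differed between HCC1187 and MDA-MB-468, 5 higher and 4 lower in HCC1187, where 84.1% of all 15592 genes passed, 43.6% higher and 40.4% lower. When libraries were scaled by their totals alone, the median of all genes moved to 0.29, against 0.06 with TMM. Of the 4 that were lower, NOTCH3 differed most (−3.46 ± 0.08, adjusted p = 1.34e-19), NOTCH1 3.15-fold lower (−1.66 ± 0.10, adjusted p = 1.03e-12) and JAG1 2.56-fold lower (−1.35 ± 0.08, adjusted p = 1.76e-12). HES1 was 1.58-fold lower (−0.66 ± 0.09, adjusted p = 8.29e-07). NOTCH2 did not pass (−0.04 ± 0.07, adjusted p = 0.574), although it passed as higher in HCC1187 with library totals (0.19, adjusted p = 0.0203).

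Higher in HCC1187 controls were HEY1, by 23.3-fold (4.55 ± 0.14, adjusted p = 1.33e-17), and JAG2, by 8.93-fold (3.16 ± 0.16, adjusted p = 3.43e-14). DLL1 had 393 counts over the 3 HCC1187 controls and 2 over the 3 MDA-MB-468 controls. After scaling that is a ratio of 161, with a 95% exact interval for counting error only of 44.2 to 1333. HES4 (0.50 ± 0.15, adjusted p = 0.00349) and NRARP (0.37 ± 0.12, adjusted p = 0.00700) were slightly higher in HCC1187. The HES4 call was lost with DESeq2, in the fit of all 12 libraries and without S9, and that of NRARP in the fit of all 12 libraries. Growth medium, library preparation and line cannot be told apart in this comparison.

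Divided by gene length, the levels of the members can be put in order within a line. In HCC1187 controls HES4 came first with a mean of 72.2 CPM per kb, and HES1 and HEY1 followed at 21.6 CPM per kb each with overlapping ranges. Below them came NOTCH3 at 14.4, NOTCH2 at 12.4, NRARP at 8.89, JAG2 at 8.58, JAG1 at 6.47, DLL1 at 3.51 and NOTCH1 at 2.48 CPM per kb, where the ranges of NRARP and JAG2 overlapped. In MDA-MB-468 controls NOTCH3 came first at 159 CPM per kb, followed by HES4 at 51.6, HES1 at 34.5, JAG1 at 16.7 and NOTCH2 at 12.9 CPM per kb. NOTCH1 at 7.89 and NRARP at 6.93 overlapped in range, as did JAG2 at 0.953 and HEY1 at 0.916, and DLL1 came last at 0.0232 CPM per kb. By this measure NOTCH3 led the 3 member receptors in both lines, at 159 CPM per kb in MDA-MB-468 and 14.4 in HCC1187. NOTCH1 was the lowest of the 3 in both lines. Without division by length NOTCH2 led in HCC1187 controls, with a mean of 247 CPM against 135 CPM for NOTCH3. The order of NOTCH2 and NOTCH3 in HCC1187 thus rests on the gene lengths used, 19930 and 9408 bases.

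**Figure D3:**
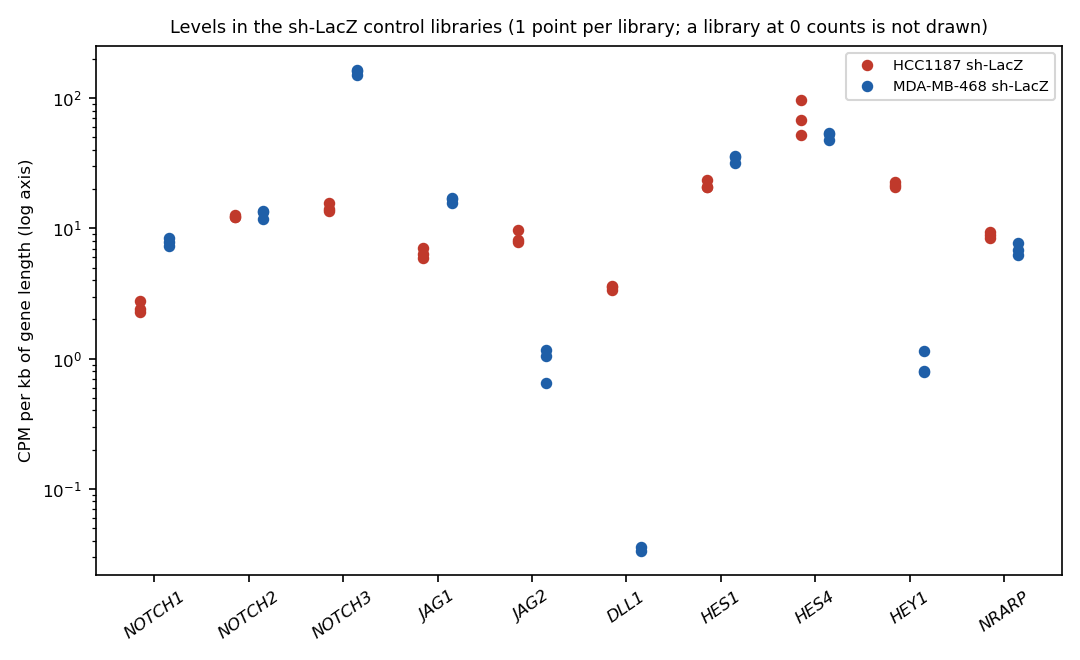
Length-scaled level (CPM per kb of gene length, log axis) of each Notch gene in the 3 HCC1187 sh-LacZ libraries and the 3 MDA-MB-468 sh-LacZ libraries, with 1 point per library; the MDA-MB-468 library with 0 counts of DLL1 is not drawn. NOTCH2 is close in both lines, NOTCH3 differs by 3.46 on the log2 scale, and JAG2, DLL1 and HEY1 are higher in HCC1187 than in MDA-MB-468.

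The other genes of the pathway were taken from 8 lists with 57 genes in all. In HCC1187, 53 were tested, of which 10 fell, 2 rose and 41 did not pass. That is close to the 22.8% of all genes that passed in this line (13.1% lower and 9.78% higher), so the counts do not set these genes apart from the rest. The largest fall was that of RBPJ, the DNA-binding protein through which all Notch receptors act. RBPJ had 85.8, 138 and 132 CPM with sh-SOX9-AS1, against 210, 252 and 261 CPM with sh-LacZ. It fell 2.04-fold (−1.03 ± 0.13, adjusted p = 3.77e-06) and passed under each of 11 alternatives. RBPJ has processed pseudogenes in the genome, so reads could be shared with them. Its coactivator MAML1 also fell (−0.44 ± 0.09, adjusted p = 0.00117), as did the acetyltransferase gene CREBBP (−0.30 ± 0.09, adjusted p = 0.0231). Of the 10 genes of the RBPJ complex 3 fell and none rose, beside 13.1% lower among all genes.

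Of 6 HES and HEY genes tested beyond the members in HCC1187, HEY2 fell and the other 5 did not pass. HEY2, the nearest relative of HEY1, had 8.0, 10.0 and 9.3 CPM with sh-SOX9-AS1, against 17, 17 and 16 CPM with sh-LacZ (−0.88 ± 0.14, adjusted p = 0.000113). MIB1, the ubiquitin ligase that drives ligand endocytosis, fell too, with 240, 307 and 287 CPM against 359, 450 and 412 CPM in sh-LacZ libraries (−0.56 ± 0.10, adjusted p = 0.000298). The proteases FURIN (−0.30 ± 0.09, adjusted p = 0.0199) and ADAM10 (−0.29 ± 0.09, adjusted p = 0.0249), which cut the receptor, fell less. HEY2, MIB1 and MAML1 passed under each of 11 alternatives, while FURIN, CREBBP and ADAM10 kept the call under 6, 6 and 5 of them. POGLUT1, which adds glucose to the receptor, fell (−0.49 ± 0.16, adjusted p = 0.0269; kept under 5 of 11). MYC (−0.47 ± 0.11, adjusted p = 0.00328) and SOX9 (−0.49 ± 0.16, adjusted p = 0.0256) fell among the other reported target genes, MYC losing the call in the fit of all 12 libraries and SOX9 under 5 alternatives. SOX9 is also the gene at the targeted locus, so its fall cannot be read as that of a Notch target alone. The genes that rose were PSEN2, a gamma-secretase subunit (0.38 ± 0.14, adjusted p = 0.0496; kept under 2 of 11), and FBXW7, which marks the freed receptor for destruction (0.34 ± 0.11, adjusted p = 0.0235; kept under 5 of 11).

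In MDA-MB-468 with all 6 libraries 0 of 47 further pathway genes passed in edgeR, 8 had an unadjusted p under 0.05, and DESeq2 called 2 (HES6 and SOX9). Without S4, 19 fell, 3 rose and 25 did not pass, where 40.7% of all genes passed, 20.7% lower and 20% higher. SOX9, the gene at the targeted locus, had 112 to 150 CPM in S4 to S6, against 180 to 230 CPM in S1 to S3. For SOX9 each knockdown library, S4 included, thus lay below each control. HES2 had the largest fall, with 57.6 CPM in S4, 9.36 in S5 and 8.51 in S6, against 53.6, 59.9 and 61.8 CPM with sh-LacZ (−1.22 ± 0.62 with all 6 libraries, adjusted p = 0.312; −2.71 ± 0.14 without S4, adjusted p = 2.05e-09). HES6, a family member that works against HES1, was higher in each of S4 to S6 than in each sh-LacZ library, which had 11.7, 13.7 and 14.7 CPM. It did not pass with S4 (0.80 ± 0.21, adjusted p = 0.205) and rose without it (0.94 ± 0.17, adjusted p = 0.000485). MYC had 228 CPM in S4, 76.4 in S5 and 61.9 in S6, against 240, 228 and 237 CPM with sh-LacZ (−0.94 ± 0.43 with all 6 libraries, adjusted p = 0.276; −1.77 ± 0.10 without S4, adjusted p = 4.07e-09). The cell cycle gene CCND1 changed by −0.66 ± 0.31 with all 6 libraries (adjusted p = 0.284) and fell without S4 (−1.20 ± 0.09, adjusted p = 7.97e-08).

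Of the 10 genes of the RBPJ complex, 5 fell in MDA-MB-468 without S4, beside 20.7% lower among all genes. They include the acetyltransferase genes CREBBP (−0.75 ± 0.09, adjusted p = 1.99e-05) and EP300 (−0.60 ± 0.09, adjusted p = 7.52e-05). With all 6 libraries CREBBP changed by −0.48 ± 0.19 (adjusted p = 0.237) and EP300 by −0.34 ± 0.19 (adjusted p = 0.336). RBPJ was not among them, with 44.2, 57.0 and 72.5 CPM in S4 to S6, against 73.7, 65.5 and 49.1 CPM in S1 to S3 (adjusted p = 0.763 with S4 and 0.879 without it). Its response differed between the lines in the test without S4 (−1.06 ± 0.21, adjusted p = 0.000491). With S4 that test passed in DESeq2 (−0.92, adjusted p = 0.0267) but not in edgeR (−0.90 ± 0.28, adjusted p = 0.0813). NEURL1, another ubiquitin ligase for ligands, did not pass with S4 (−0.71 ± 0.43, adjusted p = 0.372) and fell without it (−1.47 ± 0.22, adjusted p = 8.24e-05). The Deltex family gene DTX3 did not pass with S4 (0.61 ± 0.24, adjusted p = 0.234) and rose without it (0.82 ± 0.18, adjusted p = 0.00179).

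Some basal and luminal markers passed in HCC1187 and, without S4, in MDA-MB-468. With all 6 MDA-MB-468 libraries 0 of the 9 basal and 0 of the 7 luminal markers tested passed. In HCC1187 the 9 basal markers summed to 206 to 224 CPM with sh-SOX9-AS1, against 250 to 278 CPM with sh-LacZ. Of the 4 that could be tested 2 fell (FOXC1 and CDH3), beside 13.1% lower among all genes. In MDA-MB-468 the 9 basal markers summed to 6727 to 9114 CPM with sh-SOX9-AS1, against 8915 to 9026 CPM with sh-LacZ. Without S4 6 of the 9 fell and 1 rose, beside 20.7% lower and 20% higher among all genes. CDH3 leaned higher there, at 113 to 157 CPM in S4 to S6 against 91.5 to 114 CPM in S1 to S3, with overlapping ranges. Of the luminal markers 3 of 5 tested fell in HCC1187 (FOXA1, KRT8 and KRT18), and without S4 2 of 7 tested fell and 1 rose in MDA-MB-468. Luminal markers summed to 255 to 275 CPM with sh-SOX9-AS1, against 312 to 323 CPM with sh-LacZ in HCC1187, and to 5015 to 5766 against 4882 to 5522 CPM in MDA-MB-468. Stromal and blood markers summed to 60.9 to 75.3 CPM with sh-SOX9-AS1, against 54.8 to 67.1 CPM with sh-LacZ in HCC1187, and to 18.4 to 25.3 against 18.5 to 20.2 CPM in MDA-MB-468. The part of these marker changes in the Notch results was not tested.

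**Figure D4:**
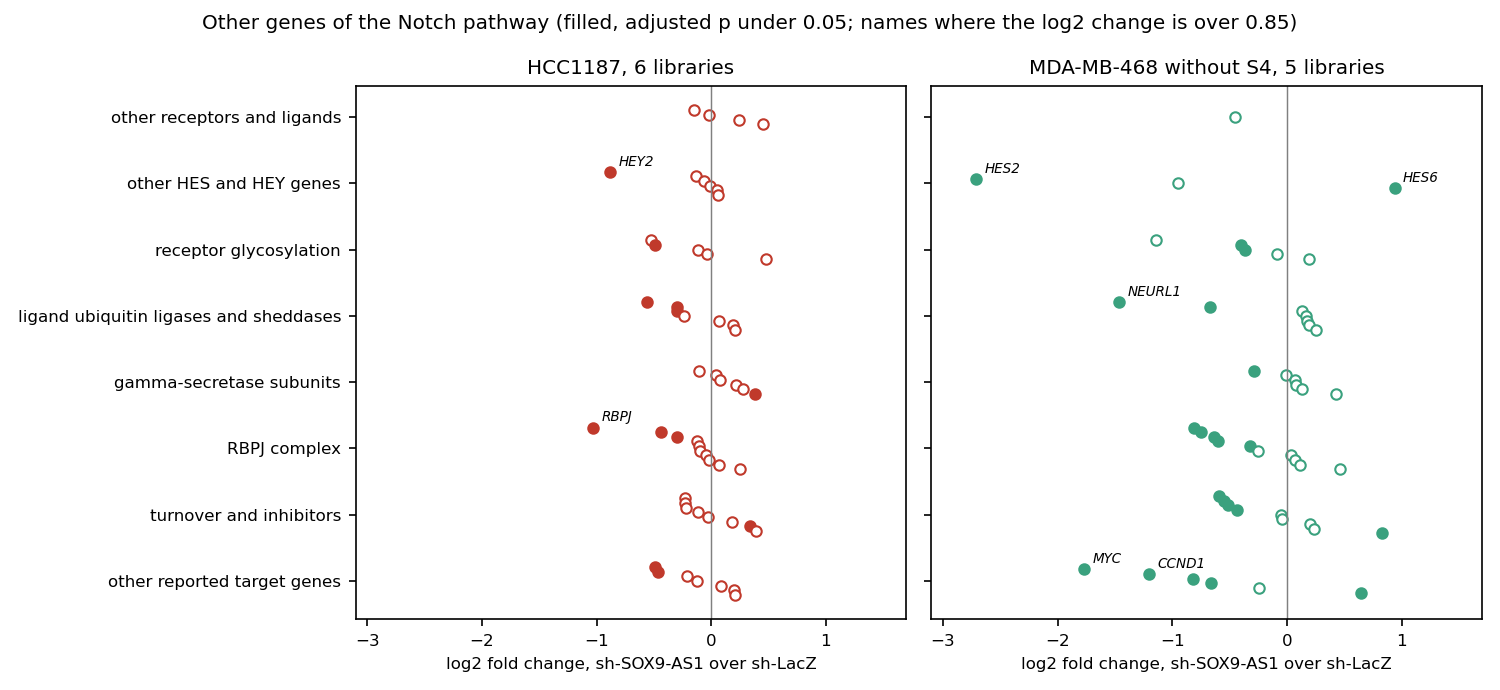
Log2 fold change, sh-SOX9-AS1 over sh-LacZ, of the other Notch pathway genes by role, in HCC1187 (6 libraries, left) and in MDA-MB-468 without S4 (5 libraries, right); each point is 1 gene and filled points passed at an adjusted p under 0.05. RBPJ (−1.03) and HEY2 (−0.88) lead the falls in HCC1187, and HES2 (−2.71) and MYC (−1.77) those in MDA-MB-468.

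Between the controls, 45 of 54 further pathway genes tested differed, 22 higher and 23 lower in HCC1187, close to the 84.1% of all genes that differed. HEYL and HES5, like HEY1 and HEY2 classic targets, were on the HCC1187 side. HEYL had 19.0, 19.3 and 19.9 CPM in HCC1187 controls and 0, 2 and 2 counts in MDA-MB-468 controls, and HES5 had 6.68, 4.65 and 4.41 CPM in HCC1187 controls and 2, 1 and 0 counts in MDA-MB-468 controls. HEY2 was 9.79-fold higher (3.29 ± 0.20, adjusted p = 1.28e-12), MIB1 5.75-fold higher (2.52 ± 0.09, adjusted p = 1.91e-16) and RBPJ 3.86-fold higher in HCC1187 controls. HES2 was 30.6-fold lower there (−4.94 ± 0.16, adjusted p = 3.64e-17), and MAML2, a Mastermind-like coactivator, was lower too (−2.85 ± 0.12, adjusted p = 1.07e-15). Of the 6 HES and HEY genes tested beyond the members, 5 were higher in HCC1187 controls (HEY2, HEYL, HES5, HES6 and HES7) and 1, HES2, was lower. Among all genes 43.6% were higher and 40.4% lower. Of the members of these families, HEY1 and HES4 were higher in HCC1187 controls and HES1 was lower (−0.66 ± 0.09).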

How the data were processed

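The authors deposited 1 table of raw read counts per gene for each line, with the genome GRCh38. The submitters' processing notes name HISAT2 2.1.0 and featureCounts 2.0.0, beside Trimmomatic 0.39, SAMtools, FastQC 0.11.9 and MultiQC 1.11, without their settings. The tables hold 3 lanes per library in 36 columns. Each group has 9 lane columns for 3 samples, and no column name ties a library to a labelled sample; 1 column per library (lane 1) was used and 24 count columns were not, so the depth is lower than that of the summed lanes. A library's group comes from its column name, and S1 to S12 are the library numbers there. No pair of libraries within a group was a copy (smallest chi-square per degree of freedom 1.90, S1 and S2). Pairs from different groups, such as S4 with a control, were not checked in this way.

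Each line was fitted by itself with edgeR 4.0.16 in R 4.3.3 (filterByExpr, minimum count 10 and minimum total 15, TMM, quasi-likelihood test), and the difference between the lines over all 12 libraries. The code was tested on simulated data without a library that stood apart as S4 did, so that test did not cover fits that hold S4. Alternatives were DESeq2 1.42.0, RLE scaling, no filter, all 12 libraries in 1 fit, leaving out each library and, added after the data were seen, library totals as the only scaling. Members and lists were chosen with earlier results of these data known. All members are named, and up to 3 genes of each list by smallest adjusted p. Promoters came from RefSeq and positions from GENCODE v29.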

Additional observations from a re-analysis of the deposited data

Results flagged for a closer look

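With all 12 libraries, FBXW7 was the 1 gene among the members and the pathway lists whose response differed between the lines in edgeR (0.78 ± 0.18 on the log2 scale, HCC1187 minus MDA-MB-468, adjusted p = 0.0308). DESeq2 called FBXW7, HES6, MIB1 and RBPJ. It had 39.1, 45.8 and 42.3 CPM with sh-SOX9-AS1, against 32.1, 31.3 and 36.5 CPM with sh-LacZ in HCC1187. In MDA-MB-468 it had 27.5, 23.1 and 20.9 CPM with sh-SOX9-AS1, against 35.5, 29.9 and 30.9 CPM with sh-LacZ. FBXW7 rose in HCC1187 (0.34 ± 0.11, adjusted p = 0.0235) and did not pass in MDA-MB-468 (−0.43 ± 0.15, adjusted p = 0.210). The call was kept under 6 of 16 alternatives, with adjusted p from 0.000303 to 0.0924, and was lost when any library other than S3 or S4 was left out.

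Without S4 the response of NOTCH1 (0.63 ± 0.19, adjusted p = 0.0152) and of NRARP (1.23 ± 0.21, adjusted p = 8.62e-05) differed between the lines, both falling more in MDA-MB-468. With S4 the values were 0.12 ± 0.37 for NOTCH1 (adjusted p = 0.920) and 0.55 ± 0.39 for NRARP (adjusted p = 0.452). Both calls thus rest on leaving out a library that was set apart on these same counts.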

How the results depend on the processing

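Of 479 single-gene values of members under an alternative, 460 stayed on their side of the threshold. Some of these changed sign with no call in either fit. HES4 in HCC1187 did so, at up to 0.12 against −0.14 in the fit reported above. The 1 that changed sign with a call is NOTCH2 between the controls, at 0.19 with library totals as the only scaling. In HCC1187 the count of 3418 genes became 1499 in the fit of all 12 libraries and 2213 to 3410 with 1 library left out, lowest without S8. In MDA-MB-468 the count of 1 became 304 with DESeq2, 1441 with no filter, 887 in the fit of all 12 libraries and 0 to 5676 with 1 library left out, of which 5676 is without S4 and the other 5 counts are 0. Of the members there, 2 passed with no filter and 0 to 6 with 1 library left out. For the difference between the lines the count of 613 became 1170 with DESeq2, 1415 with no filter and 129 to 4300 with 1 library left out, lowest without S2 and highest without S4; 0 to 2 members passed. The causes were not tested. No paired analysis was possible because the count columns carry no replicate number. Lane 1 alone limits HEY1 and JAG2 in MDA-MB-468 and SOX9-AS1 in both lines. DLL1 had at most 1 count in each MDA-MB-468 library, so it was near absent there at this depth.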

Other observations

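For each member tested in both lines, log2 CPM was centred within each line and correlated over the 12 libraries with each of the 12267 genes tested in both. These values describe likeness only, and the 12 points share their libraries, scaling and groups. NRARP was most like CEP68 (r = 0.990), SMAD3 (0.985) and LIMD1 (0.984), and NOTCH1 was most like PPRC1 (0.988), MYH9 (0.986) and EHD1 (0.984). NOTCH2 was most like NUDT19, GTF3C4 and FNIP2 (0.982 each), and JAG1 was most like AKIRIN1 (0.971). The highest r was lower for HES1 (PRDM10, 0.922) and for JAG2 (A4GALT, 0.868). No member was among the 3 genes most like another member.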
